A study of Mus musculus with 6 samples.

Results

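The genes described here are Id2, Id3, Tcf3, Tcf4, Tcf12 and Ascl2, the Id inhibitors and E-protein transcription factors measured in antiviral CD4+ T cells, with a partner of the E proteins. They were chosen by name, with earlier results of these data known, as rows of the table of raw counts per Ensembl gene. All 6 were among the 15445 genes of that table. The libraries came from C57BL/6 mice infected with lymphocytic choriomeningitis virus (LCMV), 5 days after infection. The cells were splenic CD4+ T cells carrying a transgenic receptor and the congenic marker Thy1.1, sorted by how much CD25 they displayed. CD25 is the chain that makes the receptor for interleukin-2 bind it tightly. The 3 CD25-high and the 3 CD25-low libraries share all of this and differ in CD25. The labels name neither the receptor transgene nor the age of the mice, and leave unsaid whether each library is a different animal. P-values here therefore reflect the spread among these libraries only, some of which may be technical. Values by library are listed in the order of the library numbers 1, 2 and 3.

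E proteins are basic helix-loop-helix (bHLH) transcription factors that bind short DNA elements called E-boxes as dimers. Id proteins keep the helix-loop-helix but lack the basic region that touches DNA, so a dimer of an Id and an E protein cannot bind. In T cells the balance between them governs receptor gene rearrangement and lineage choice in the thymus. In CD4+ T cells answering a virus, Id2 is known for favouring T helper 1 (Th1) effectors, and Id3 and the E proteins are known from follicular helper and memory cells. Ascl2 is a bHLH factor that pairs with E proteins and drives the follicle-homing receptor Cxcr5 in follicular helper cells.

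In these libraries Id3 was 24.9-fold lower in CD25-high than in CD25-low cells and was the member that passed the edgeR test with group as the only term. The fold rests on 1 to 8 reads per CD25-high library. The call was lost with limma voom and when library 2 or 3 of either group was left out. Id2 had a fold change of 1.81 in the other direction and passed only when same-numbered libraries were paired. Tcf3 and Tcf4 had higher values in all 3 CD25-high libraries than in any CD25-low library, and Tcf12 leaned the other way. Of all tested genes, 16.9% had no overlap between the groups in either direction. Over all 6 libraries, 0 of the 3 E-protein genes passed in edgeR, with or without the block, or in DESeq2 or limma voom. In edgeR without the block 2 of them had an unadjusted p under 0.05, as had 11.1% of all tested genes. Ascl2 was near the limit of detection, with 19 reads in CD25-low and 1 read in CD25-high libraries.

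Sequences upstream of a RefSeq start of Id2 and of Tcf12 are shown because both held the E-box CAGCTG. E proteins bind elements of this kind, and Id proteins keep them from it. By GENCODE M21 the Id2 stretch lies inside the Id2 gene, and 161 of the 250 bases of its window are exon. The Tcf12 stretch lies just upstream of the annotated gene. Each is printed 5′ to 3′ on the gene's strand from RefSeq, build GRCm38.p6, which is the same assembly as mm10, ending where a GENCODE M21 exon begins. Capitals mark motif matches, CAGCTG in both and, in Id2, also GGCGCC, a SMAD element of bone morphogenetic protein (BMP) responses.
Id2, chr12:25096254-25096342, minus strand: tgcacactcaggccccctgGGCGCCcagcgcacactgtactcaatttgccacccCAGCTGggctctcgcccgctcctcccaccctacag
Tcf12, chr9:72111872-72112069, minus strand: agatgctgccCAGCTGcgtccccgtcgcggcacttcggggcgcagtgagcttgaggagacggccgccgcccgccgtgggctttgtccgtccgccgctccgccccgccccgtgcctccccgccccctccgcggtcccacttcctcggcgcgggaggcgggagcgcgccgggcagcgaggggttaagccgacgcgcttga
In Id2 the E-box begins at position -196 and the SMAD element at -231 from the RefSeq start, and in Tcf12 the E-box begins at -240. Of 32851 windows of 250 bases upstream of a RefSeq start, 13% held CAGCTG and 9.59% GGCGCC on either strand. The other motifs searched on both strands were the E-box CAGGTG (17.2% of windows), the STAT element TTCNNNGAA (7.02%), the Egr core GCGTGGG (4.3%) and the Blimp-1 core GAAAGTG (4.01%). Ascl2 held CAGGTG at -249, and the Tcf3 window held 0 of the 6 motifs. A second Tcf12 window, which lies inside the gene by GENCODE M21, held GCGTGGG at -103. All 250 bases of the Id3 window and of the remaining Tcf12 window are exon in GENCODE M21, so these are not read as sequence upstream of a gene. RefSeq windows were matched for Id2, Id3, Tcf3, Tcf12 and Ascl2, and Tcf4 had no match. A match describes these letters only, and no binding was measured.

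Total counts were 16787233 to 23567066 per library, of which mitochondrial ribosomal RNA took 29.26% to 35.33%. Il2ra, the gene of the sort marker, had counts-per-million (CPM) values of 432 to 1536 in CD25-high and 20.7 to 35.7 in CD25-low libraries, so every library was on the side its label names. All 8 defining T cell genes were tested, with a summed level of 2759 to 2894 CPM in CD25-high and 2734 to 3697 CPM in CD25-low libraries, led by Cd3e and Cd4. Of these genes 0 passed in edgeR without the block and 2 had an unadjusted p under 0.05, as had 11.1% of all tested genes. With the block 2 fell, Cd3d (log2 fold change -1.01 ± 0.21, adjusted p 0.0134) and Cd3g (-0.86 ± 0.18, adjusted p 0.0135), both chains of the T cell receptor complex and both without overlap between groups, where 2.9% of tested genes were called as lower. Libraries numbered 1 stood apart from the others in both groups. With the group as a term, 16.3% of 12987 tested genes differed at least 2-fold between number 1 and the mean of the others, against 9.36% for number 2 and 9.4% for number 3. Same-numbered libraries deviated together, so values with the replicate number as a block are given where they change a call, and values without both libraries numbered 1 are given for each member.

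Id3 was low in every library, and its CD25-high libraries stood at the floor. The CD25-high libraries gave 5, 8 and 1 reads, or 0.283, 0.426 and 0.0564 CPM. The CD25-low libraries gave 63, 125 and 262 reads, or 3.45, 5.32 and 10.8 CPM. The groups did not overlap, and the lowest CD25-low library had several times the level of the highest CD25-high one. The log2 fold change was -4.64 ± 0.77 (SE; 95% interval -6.35 to -2.93), with an edgeR adjusted p of 0.0267. In bulk RNA, fewer cells that express Id3 and less Id3 RNA per cell cannot be told apart.

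Among the 5 members tested, Id3 alone was called, against 0.655% of all 12987 tested genes, 0.501% of them lower and 0.154% higher in CD25-high cells. Of all tested genes, 0.162% had a log2 fold change at or below that of Id3. With the replicate block its log2 fold change was -4.52 ± 0.75 (adjusted p 0.0033), and without both libraries numbered 1 it was -5.02 ± 0.79 (adjusted p 0.00446). The call was lost with limma voom (adjusted p 0.129) and when library 2 or 3 of either group was left out (CD25-high 0.0637 and 0.123, CD25-low 0.118 and 0.148), with the log2 fold change between -5.21 and -4.06 over the fits that left out a library.

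Id2 is the more abundant Id gene and differed more by library number than by CD25. CD25-high libraries had 20.2, 87.4 and 71.2 CPM, against 10.2, 40.7 and 47.6 CPM in the CD25-low ones. Libraries 2 and 3 of the CD25-high group were above every CD25-low library, while CD25-high library 1 fell below CD25-low libraries 2 and 3, so that the groups overlapped. Within each number CD25-high was the higher, by 0.96, 1.09 and 0.58 on the log2(CPM + 0.5) scale for numbers 1, 2 and 3. With the group as a term, the libraries numbered 1 were lower in Id2 than the others by a log2 difference of -2.04, and 2.43% of tested genes had a difference as low or lower.

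The log2 fold change of Id2 was 0.86 ± 0.58 (SE; 95% interval -0.42 to 2.14), and the edgeR adjusted p was 0.641. With the replicate block it was 0.89 ± 0.20 (95% interval 0.45 to 1.32), and Id2 rose with an adjusted p of 0.0225. That fit called 2 of 5 members, Id2 and Id3, and 4.63% of all tested genes, 1.73% as higher and 2.9% as lower in CD25-high cells. Without both libraries numbered 1 the log2 fold change was 0.84 ± 0.21 with an adjusted p of 0.055. With the block and without pair 1 or 2 the adjusted p of Id2 was 0.0578 or 0.237, and without pair 3 it was 0.0274. Id1 and Id4, the other Id genes, had no row in the table and were not analysed here.

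**Figure D1:**
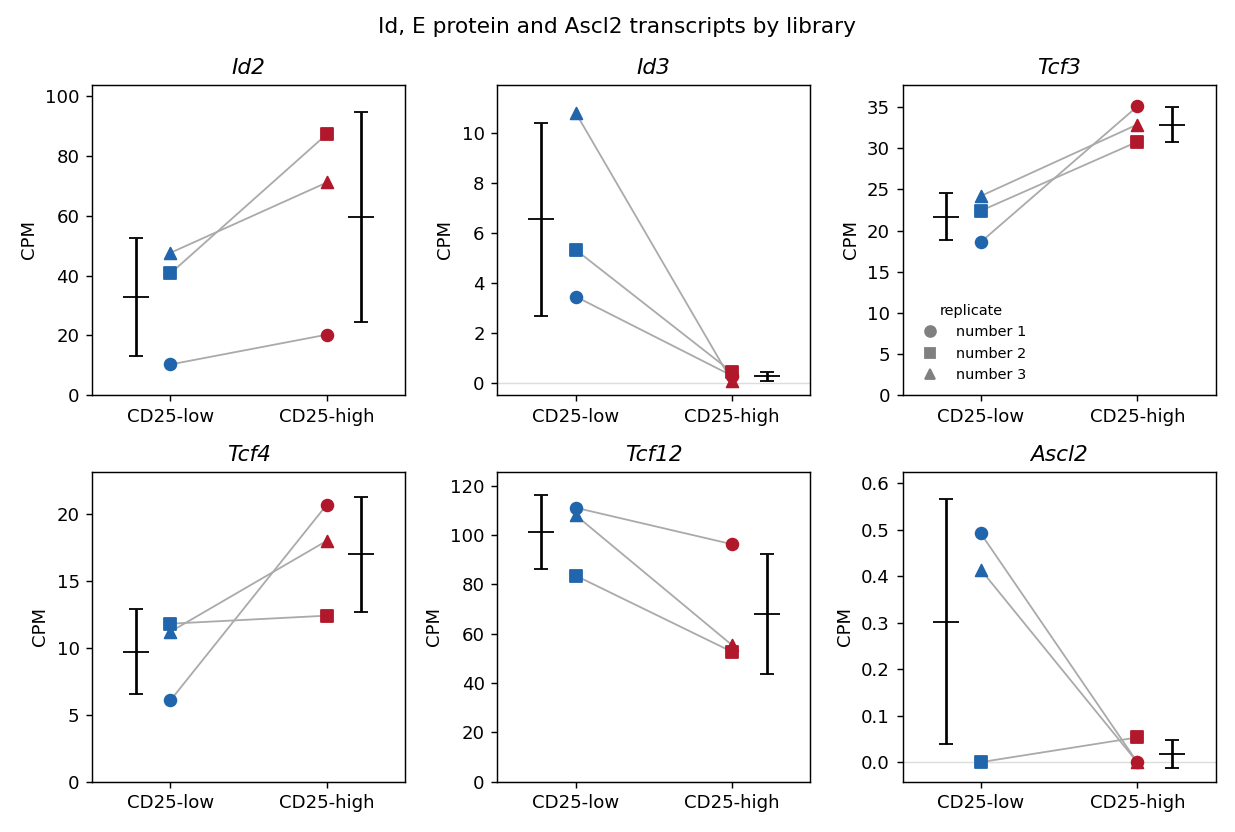
Level of each gene in counts-per-million (CPM, vertical axes from 0, separate for each gene) in CD25-low (blue) and CD25-high (red) libraries; circles, squares and triangles are libraries numbered 1, 2 and 3, grey lines join the same number, and black bars give mean ± SD (n = 3). Id3 falls to 0.426 CPM or less in every CD25-high library, and Id2 is lowest in the libraries numbered 1 of both groups (10.2 and 20.2 CPM).

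The share of Id3 in the counts of Id2 and Id3 together does not depend on scaling between libraries. Id3 took 1.38% (95% Wilson interval 0.591% to 3.19%), 0.485% (0.246% to 0.954%) and 0.0791% (0.014% to 0.447%) of these counts in the CD25-high libraries. It took 25.3% (20.3% to 31%), 11.6% (9.8% to 13.6%) and 18.5% (16.6% to 20.6%) in the CD25-low libraries. These intervals cover counting error only. Id2 was thus the larger part in all 6 libraries, and the intervals of the groups did not overlap. The log2 ratio of Id3 to Id2, per kb of exon and with 0.1 added to each level, was -6.52 ± 1.40 in CD25-high and -1.73 ± 0.69 in CD25-low libraries (SD, n = 3 each). The difference of -4.79 had an exact two-sided permutation p of 0.1, the smallest that 3 against 3 libraries allow. With 1 added in place of 0.1 the difference was -2.75. Its size therefore depends on the amount added, since Id3 in CD25-high libraries (0.0315 to 0.238 CPM per kb) was near 0.1 itself. CD25-high was the lower within each number, by differences of -3.95, -4.28 and -6.13 for numbers 1, 2 and 3, the libraries numbered 1 included.

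Tcf3 encodes the E proteins best known from early lymphocyte development. CD25-high libraries had 35.1, 30.8 and 32.9 CPM, against 18.6, 22.4 and 24.2 CPM in the CD25-low ones. The groups did not overlap and the spread within each was small. The log2 fold change was 0.60 ± 0.23 (SE; 95% interval 0.08 to 1.11), with an unadjusted p of 0.0267 and an edgeR adjusted p of 0.369. Tcf3 did not pass with the block (adjusted p 0.172) or without both libraries numbered 1 (log2 fold change 0.45 ± 0.25, adjusted p 0.426).

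Tcf4 encodes the E protein best known for plasmacytoid dendritic cells, and is not the Wnt-pathway factor of a similar name. CD25-high libraries had 20.7, 12.4 and 18.0 CPM, against 6.07, 11.8 and 11.2 CPM in the CD25-low ones. The groups did not overlap, but CD25-high library 2 was close to CD25-low libraries 2 and 3, and the widest gap was between the libraries numbered 1. The log2 fold change was 0.81 ± 0.35 (SE; 95% interval 0.02 to 1.60), with an edgeR adjusted p of 0.435 and of 0.235 with the block. Without both libraries numbered 1 the log2 fold change was 0.40 ± 0.32.

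Tcf12 encodes HEB, the main dimer partner of the Tcf3 products in thymocytes, and had the most reads of the 3 E-protein genes. CD25-high libraries had 96.2, 52.6 and 55.3 CPM, against 111, 83.5 and 108 CPM in the CD25-low ones. CD25-high library 1 lay above CD25-low library 2, so the groups overlapped, while CD25-high libraries 2 and 3 lay below every CD25-low library. The log2 fold change was -0.57 ± 0.27 (SE; 95% interval -1.16 to 0.02), with an edgeR adjusted p of 0.469 and of 0.0868 with the block. Without both libraries numbered 1 it was -0.83 ± 0.20 and passed narrowly (adjusted p 0.0497), where 2.83% of 13420 tested genes were called. With the block and without pair 1 the adjusted p was 0.0403.

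Of the 5 tested members 3, Id3, Tcf3 and Tcf4, had groups that did not overlap, and 16.9% of all tested genes likewise had no overlap. In all 5 the CD25-high library lay on the same side of the CD25-low library within every number, which held for 40.6% of tested genes.

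**Figure D2:**
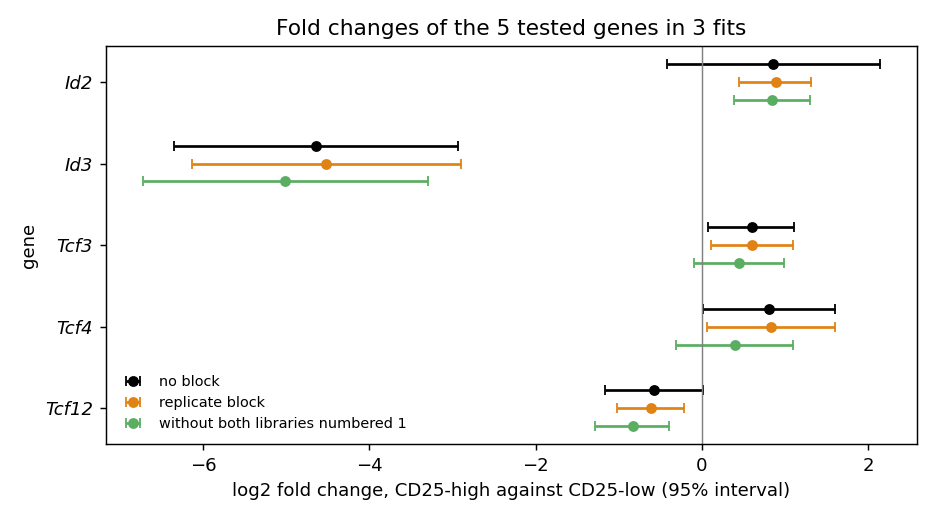
Log2 fold changes (horizontal axis, CD25-high against CD25-low) of the 5 tested genes with 95% intervals from edgeR, without a block (black), with the replicate number as a block (orange) and without both libraries numbered 1 (green). Id3 lies between -5.02 and -4.52 in these fits, and the interval of Id2 narrows from -0.42 to 2.14 without the block to 0.45 to 1.32 with it.

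Levels of different genes are compared per kb of exon, over the union of annotated exons. That union is long for Tcf4 (27382 bases) and Tcf12 (15529 bases) beside Tcf3 (4039 bases), and reads may come from shorter isoforms, so the order of E-protein genes depends on it. In CD25-high libraries Tcf3 had 8.15 ± 0.541, Tcf12 4.38 ± 1.57 and Tcf4 0.623 ± 0.156 CPM per kb, and Id2 24.5 ± 14.4 and Id3 0.143 ± 0.104 (SD, n = 3). In CD25-low libraries Tcf12 had 6.49 ± 0.968, Tcf3 5.38 ± 0.699 and Tcf4 0.354 ± 0.115 CPM per kb, and Id2 13.5 ± 8.17 and Id3 3.65 ± 2.14 (SD, n = 3). By these means the order was Id2, Tcf3, Tcf12, Tcf4, Id3 in CD25-high and Id2, Tcf12, Tcf3, Id3, Tcf4 in CD25-low cells. The levels of Tcf12 and Tcf3 in CD25-low libraries overlapped, as did those of Tcf3 and Id3. Id2 overlapped with Tcf3 in CD25-high and with Tcf12 and Tcf3 in CD25-low libraries, through the libraries numbered 1. The other neighbours in each order did not overlap.

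The sum of the E-protein genes hardly differed between the groups. It was 15.7, 11.5 and 12.4 CPM per kb in the CD25-high libraries and 12.0, 11.3 and 13.4 in the CD25-low libraries. On the log2 scale the means were 3.70 ± 0.23 and 3.61 ± 0.12 (SD, n = 3 each), a difference of 0.10 with an exact two-sided permutation p of 0.6. The sign of that difference turned without length scaling (-0.19) and without CD25-high library 1 (-0.04).

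The share of Tcf3 in that sum is given as a description, since neither Tcf3 nor Tcf12 passed without or with the block. Tcf3 made up 55.6%, 66.5% and 65.9% of the E-protein level per kb in the CD25-high libraries and 38.6%, 48.8% and 44.8% in the CD25-low libraries. The ratio of Tcf3 to Tcf12 counts, which needs neither scaling nor length and was chosen after these values were seen, was 0.365, 0.586 and 0.595 in the CD25-high libraries. It was 0.169, 0.268 and 0.223 in the CD25-low libraries, so the groups did not overlap. Its log2 means were -0.99 ± 0.40 and -2.21 ± 0.34 (SD, n = 3 each), and the difference of 1.22 is given with no test. Libraries numbered 1 had the lowest ratio of their group in both groups.

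The summed level of Id2 and Id3 over that of the E-protein genes, per kb, was 0.54, 3.15 and 2.37 in the CD25-high libraries and 0.51, 1.73 and 1.91 in the CD25-low libraries. The libraries numbered 1 were far below the rest in both groups. On the log2 scale the difference between groups was 0.42, with an exact two-sided permutation p of 0.5. Within numbers 1, 2 and 3 the CD25-high library was the higher by 0.08, 0.86 and 0.31, and the paired exact two-sided permutation p was 0.25, the smallest that 3 pairs allow. Leaving out a single library breaks a pair, and the difference was then -0.07 without CD25-high library 2 and -0.19 without CD25-low library 1.

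**Figure D3:**
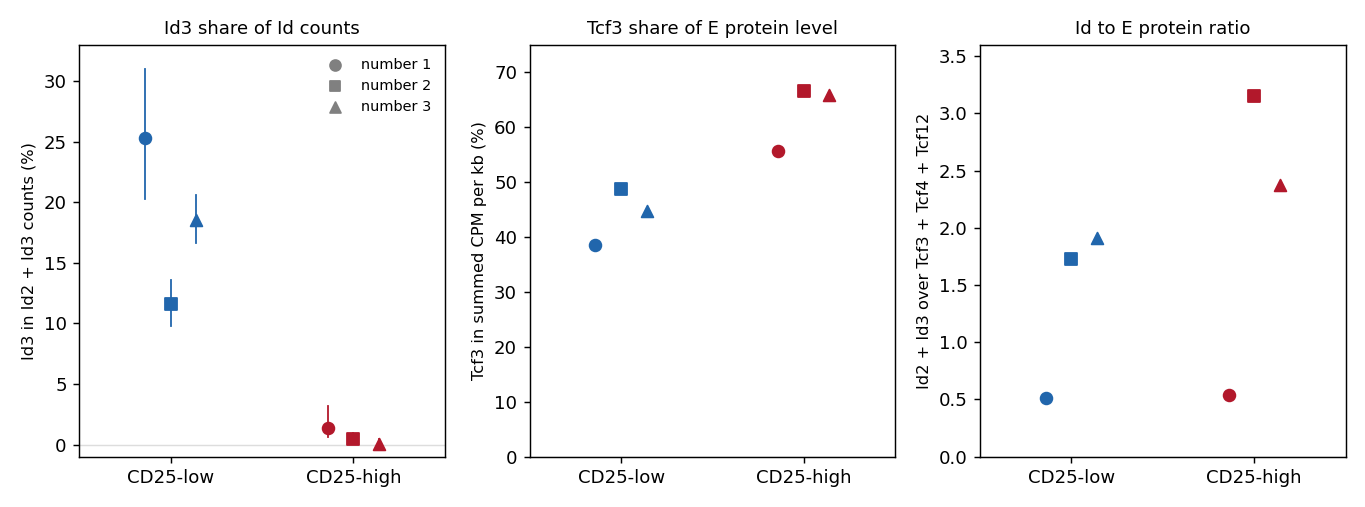
Share of Id3 in the Id2 and Id3 counts (left, percent, bars are 95% Wilson intervals), share of Tcf3 in the summed E-protein level per kb (middle, percent) and ratio of summed Id to summed E-protein level per kb (right), for each CD25-low (blue) and CD25-high (red) library, with circles, squares and triangles for numbers 1, 2 and 3. The groups separate in the first 2 panels (Id3 at most 1.38% against at least 11.6%, Tcf3 at least 55.6% against at most 48.8%) and overlap in the third, where the libraries numbered 1 stand at 0.51 and 0.54.

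Ascl2 did not pass the filter on low counts. It had 0, 1 and 0 reads in the CD25-high libraries and 9, 0 and 10 reads in the CD25-low libraries. CD25-low library 2 had none, so the groups overlapped. Pooled over libraries and scaled to total counts, the CD25-low level was 15.7 times the CD25-high level, with an exact 95% interval of 2.49 to 651 that covers counting error only. Without the filter the edgeR adjusted p was 0.551, and no difference was called. None of the other 20 tissue-restricted bHLH genes on the list of possible dimer partners had a row, so they were not analysed here.

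Cofactors through which E proteins act were tested for 11 of 15 listed genes, and 0 passed in edgeR with or without the block, or with DESeq2 or limma voom, while 4 had an unadjusted p under 0.05, as had 11.1% of all tested genes. Their median log2 fold change was 0.20, beside 0.01 over all tested genes. This and the other gene lists were chosen with earlier results of these data known. Counts on them beside shares of all genes are therefore no independent test. The smallest p-values were those of the co-repressor Cbfa2t2 (0.71 ± 0.22, edgeR adjusted p 0.267) and its relative Cbfa2t3 (-2.59 ± 0.85, adjusted p 0.282). Cbfa2t2 had 30.4, 31.3 and 31.2 CPM in CD25-high cells against 19.6, 18.7 and 18.5 CPM in CD25-low cells, without overlap. The coactivator gene Ep300 had a log2 fold change of 0.46 ± 0.18 and did not pass either (adjusted p 0.364, named after its value was seen). Of 5 enzymes that stabilise or degrade Id or E proteins 0 passed in any of these fits and 1 had an unadjusted p under 0.05, and all 5 log2 fold changes lay between 0.13 and 0.59. Skp2, a ubiquitin ligase subunit (0.59 ± 0.22, adjusted p 0.356), and Fzr1, an activator of the anaphase-promoting complex (0.57 ± 0.35, adjusted p 0.607), had the smallest p-values.

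Genes known as E-protein targets in the T lineage were tested for 14 of 18 listed genes, and 0 passed in edgeR without the block. There 5 had an unadjusted p under 0.05, as had 11.1% of all tested genes. With the block 4 fell and 0 rose, where 2.9% of all tested genes were called as lower and 1.73% as higher. As the list was chosen with earlier results of these data known, these counts are descriptions. DESeq2, which called 376 of 15445 genes, called Tcf7. Limma voom, which called 94 of 12987 genes, called Tcf7 and Cxcr5. Tcf7, the gene of the follicular helper and memory factor TCF1, had the smallest p. CD25-high libraries had 173, 32.2 and 21.6 CPM, against 879, 736 and 947 CPM in the CD25-low ones. CD25-high library 1 was the highest of its group but still far below the CD25-low libraries (log2 fold change -3.50 ± 0.67, adjusted p 0.0522, and 0.000142 with the block). Cxcr5, the follicle-homing receptor and also an Ascl2 target, had 11.8, 1.33 and 0.902 CPM in CD25-high cells against 67.9, 30.1 and 44.0 CPM in CD25-low cells (-3.34 ± 0.81, adjusted p 0.127, and 0.000269 with the block). It shares 110 exonic bases with Bcl9l on the opposite strand, so with no stated strand setting its count is uncertain to that extent.

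The other targets that fell with the block were the transcription factor genes Ets1 and Lef1. With the block the log2 fold change was -0.83 ± 0.14 for Ets1 (adjusted p 0.00448) and -0.59 ± 0.15 for Lef1 (adjusted p 0.0434). Without the block it was -0.87 ± 0.33 and -0.59 ± 0.30, and neither passed. The median over the 14 genes without the block was -0.24, with 6 positive and 8 negative values. Il7r, named after its values were seen, had the highest (1.63 ± 0.60), without overlap between groups. It did not pass in edgeR without the block (adjusted p 0.343) or with it (0.142). Rag1, Rag2 and Ptcra, the classic thymic targets, had no row.

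Regulators known to act on Id genes were tested for all 19 listed genes, of which 1 rose and 1 fell, beside 0.154% of all tested genes called as higher and 0.501% as lower. This list too was chosen with earlier results of these data known, so its counts are descriptions. Prdm1, whose product Blimp-1 is known as a repressor of Id3, rose, with 214, 226 and 251 CPM in CD25-high cells against 51.7, 64.6 and 97.4 CPM in CD25-low cells (log2 fold change 1.69 ± 0.25, edgeR adjusted p 0.0159). Egr2, a factor of T cell receptor signalling in the family known to induce Id3, fell, with 3.06, 2.77 and 5.25 CPM in CD25-high cells against 40.8, 49.3 and 54.2 CPM in CD25-low cells (-3.70 ± 0.33, adjusted p 0.00103). Both separate the groups without overlap. Whether these or the other listed regulators act on Id3 or Id2 in these cells was not tested. Egr2 kept its call whichever library was left out (highest adjusted p 0.012), and the edgeR adjusted p of Prdm1 reached 0.0529 and 0.103 when number 2 or 3 of the CD25-high group was dropped and 0.121 when number 2 of the CD25-low group was, which ended its call. With the block, Egr1, Egr3, Smad3 and Tgfbr2 fell as well. The last 2 are parts of the transforming growth factor-beta pathway, which is known to control Id genes. In all, 1 was higher and 5 were lower with the block, where 1.73% and 2.9% of all tested genes were called. DESeq2 called Prdm1, Egr1, Egr2, Egr3 and Smad3 (among 376 of 15445 genes called), and limma voom Prdm1 and Egr2 (among 94 of 12987). Smad3 had 21.1, 36.7 and 20.8 CPM in CD25-high cells against 58.0, 61.1 and 54.4 CPM in CD25-low cells (-1.14 ± 0.27, adjusted p 0.117, and 0.00593 with the block). The median over the 19 genes was -0.39. Stat5a (-0.61 ± 0.21) and Stat5b (-0.17 ± 0.21), the transducers of the interleukin-2 signal, did not pass (adjusted p 0.308 and 0.834, named after their values were seen).

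Of 10 genes known to respond to Ascl2, 9 were tested and 1 rose, Il2ra, which is the sort marker and therefore no finding (0.154% of all tested genes were called as higher). With the block, Il2rb, the beta chain of the interleukin-2 receptor, rose too (448, 540 and 551 against 177, 244 and 372 CPM in libraries 1, 2 and 3, adjusted p 0.00327 with the block), and Cxcr5 fell, where 1.73% and 2.9% of tested genes were called as higher and lower. DESeq2 called Il2ra, Il2rb and Ifng (among 376 of 15445 genes called), and limma voom Il2ra and Cxcr5 (among 94 of 12987). Ifng, the gene of the Th1 cytokine interferon-gamma, had 97.9, 24.2 and 43.1 CPM in CD25-high cells against 16.6, 22.3 and 20.7 CPM in CD25-low cells, without overlap, and did not pass in edgeR (log2 fold change 1.47 ± 0.43, adjusted p 0.217, and 0.0731 with the block). Ccr7 and Selplg, which Ascl2 is known to lower, were named, like Ifng, after their values were seen. Ccr7, the receptor that leads T cells to lymph nodes, had 30.4, 3.41 and 1.86 CPM in CD25-high cells against 9.46, 16.6 and 20.4 CPM in CD25-low cells. Its value rested on the libraries numbered 1: within numbers 1, 2 and 3 CD25-high differed by 1.63, -2.13 and -3.15 on the log2(CPM + 0.5) scale. Ccr7 did not pass without the block (log2 fold change -0.38 ± 0.82, edgeR adjusted p 0.909) or with it (-1.45 ± 0.79, adjusted p 0.369). Without both libraries numbered 1 it fell (-2.81 ± 0.41, adjusted p 0.00276), where 2.83% of 13420 tested genes were called. Selplg did not pass in these 3 fits (0.20 ± 0.42, adjusted p 0.907 without the block). Cxcr5 stands on the target list too, and Gata3 on the cofactor list.

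**Figure D4:**
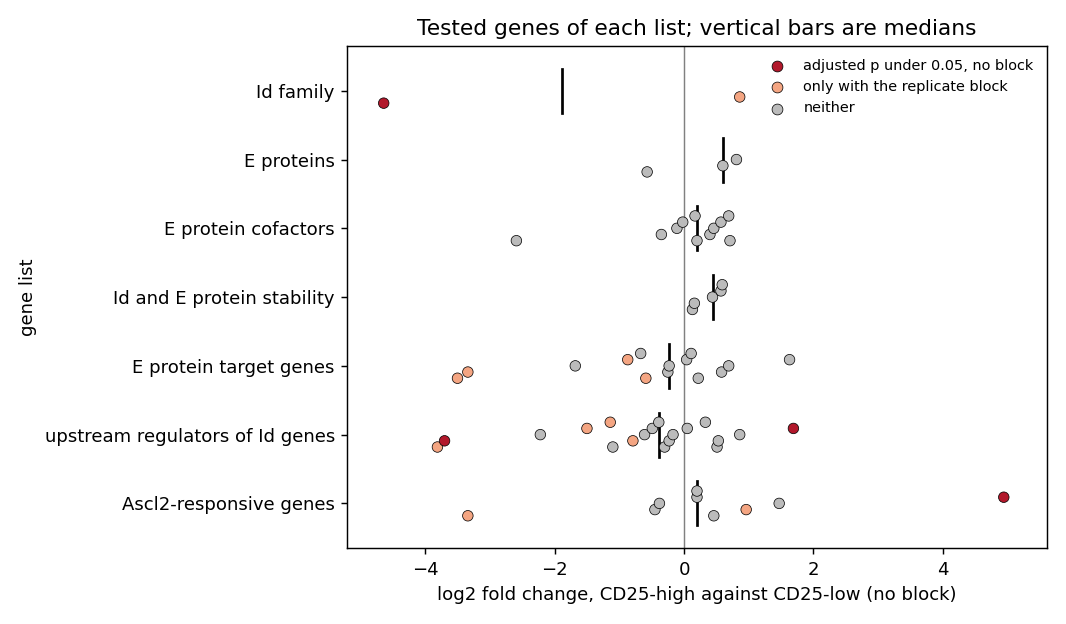
Log2 fold changes (horizontal axis, CD25-high against CD25-low, no block) of the tested genes of 7 lists; each point is a gene, red where the adjusted p was under 0.05 without the block, light orange where only with the block, grey otherwise, and vertical bars are list medians. Apart from Id3 at -4.64, red points are Egr2 (-3.70), Prdm1 (1.69) and the sort marker Il2ra (4.94).

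Genes whose log2(CPM + 0.5) over the 6 libraries was most like that of Id3, among 8048 protein-coding genes with a mean of at least 5 CPM, were Cyren (Pearson r 0.998), Klhl24 (0.995), Xpc (0.994), Tmem140 (0.994) and Usp6nl (0.987). The Id3 levels of the CD25-high libraries (0.0564 to 0.426 CPM) lie below the 0.5 added, so this order may depend on that amount and on few reads. Cyren and Tmem140 share 2168 exonic bases on opposite strands, so they are not separate measurements. Among the genes most like Id3, Klhl24 (log2 fold change -2.52, edgeR adjusted p 0.0189) and Usp6nl (-1.33, adjusted p 0.0257) fell. Of all tested genes, 0.501% were called as lower. Both were picked for following Id3, which separates the groups. Their fall was largely set by that choice and is no independent result. The call of Klhl24 ended when number 3 of the CD25-high group (edgeR adjusted p 0.123) or number 2 or 3 of the CD25-low group (0.113 and 0.0909) was dropped. That of Usp6nl ended in 5 of 6 such fits (0.0543 to 0.184), the exception being the fit that dropped CD25-high number 1 (0.038). The most opposite were Tsga10 (-0.988), Slbp (-0.986) and Zc3h12c (-0.982). Most like Id2 were Ifngr1, the interferon-gamma receptor chain (0.996), Diaph1 (0.994), Anxa2 (0.993), E2f2 (0.993) and Ccr9 (0.991), and most opposite Isg15 (-0.993), Tgfbr3 (-0.992) and Isg20 (-0.990). Ifngr1 had 43.0, 121 and 110 CPM in CD25-high cells against 23.4, 77.7 and 80.1 CPM in CD25-low cells, so that it shares with Id2 the low level of the libraries numbered 1. Id3 correlated with Id2 at -0.25, with Tcf3 at -0.80, with Tcf4 at -0.63 and with Tcf12 at 0.69. The 6 points share the split by CD25 and the library numbers, and these values are descriptions.

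Id2 and Tcf4 are also expressed by other cells of the spleen, so markers of these were measured. Their part in the results was not tested. Natural killer and innate lymphoid cells, which carry Id2, had rows for 4 of 7 markers, with a summed level of 0.846 to 5.21 CPM in CD25-high and 2.98 to 5.41 in CD25-low libraries, led by Eomes and Klrd1, and Ncr1 had no row. Of 9 markers of plasmacytoid dendritic cells 4 had a row (19.2 to 38.7 and 32.1 to 70.8 CPM), led by Irf8 and Tlr7, which T cells can express, and Siglech had no row. Ccr9 is on this list too, and it also stands on the target list and among the genes most like Id2. B cell markers had rows for 3 of 8 (3.61 to 10.4 and 8.94 to 15.6 CPM), led by Cd22 and Cd79b, and Cd79a, Ms4a1 and Pax5 had none. Conventional dendritic and myeloid markers had rows for 6 of 10 (8.63 to 22.1 and 9.68 to 18.3 CPM), led by Zbtb46 and Csf1r. Cd8b1 alone of the CD8 pair had a row, at 3.51 to 5.33 CPM in CD25-high and 1.59 to 2.32 CPM in CD25-low libraries. Alas2 alone of 6 erythroid genes had one (2.27 to 2.71 and 1.82 to 3.34 CPM). All 5 regulatory T cell genes had rows (275 to 431 and 429 to 639 CPM), led by Ctla4 and Ikzf2, and 1 of the 4 tested fell (0.501% of all tested genes were called as lower). That gene was Ikzf2, which encodes Helios, with 114, 93.9 and 88.2 CPM in CD25-high cells against 313, 197 and 272 CPM in CD25-low cells (-1.40 ± 0.22 on the log2 scale, adjusted p 0.0241 without the block and 0.000302 with it). Its call in edgeR without the block ended when number 2 or 3 of the CD25-high group (adjusted p 0.114 and 0.193) or number 1 or 3 of the CD25-low group (0.067 and 0.112) was dropped. Foxp3, the defining gene, named after its values were seen, was at most 5.78 CPM in any library and did not pass (1.27 ± 0.61, adjusted p 0.49). It shares 853 exonic bases with Flicr on the same strand and 590 with Ccdc22 on the opposite one, so its count is uncertain. Other genes named here share exonic bases with a gene that has a row in the table, among them Csf1r with Hmgxb3 (873 bases), Alas2 with Apex2 (311), Ccr9 with Gm17200 (269), Tsga10 with Gm26805 (208), Gata3 with Gm13256 (155), Anxa2 with Gm16144 (98) and Stat5a with Stat3 (72).

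By GENCODE M21 on GRCm38, Id2 (ENSMUSG00000020644) occupies bases 25093799 to 25097140 of chromosome 12, minus strand. Id3 (ENSMUSG00000007872) occupies bases 136143497 to 136145755 of chromosome 4, plus strand. Tcf3 (ENSMUSG00000020167) occupies bases 80409514 to 80433647 of chromosome 10, minus strand. Tcf12 (ENSMUSG00000032228) covers bases 71842688 to 72111871 of chromosome 9, and Ascl2 (ENSMUSG00000009248) bases 142966829 to 142969264 of chromosome 7, both minus strand. None of the 6 members shares exonic bases with another gene annotated there. The longest annotated coding sequence is 465 bases for Id2 and 357 bases for Id3, against 1959 for Tcf3 and 2118 for Tcf12. By these lengths the Id2 and Id3 proteins are shorter than those of Tcf3 and Tcf12.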

How the data were processed

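RNA was sequenced from 3 CD25-high and 3 CD25-low libraries. The deposited values are raw counts, whole numbers of reads per Ensembl gene. Per the labels' protocols, miRNeasy total RNA went into NuGEN Ovation v2 libraries. The submitters' processing notes list Novoalign, DESeq2, mm10 and hg19 with no version or role. The counting step, its annotation and its strand setting are not given in those sources. The smallest row total is 10. GENCODE M21 named 15169 gene identifiers, and 276 had no match.

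The counts were tested with edgeR 4.0.16 (R 4.3.3), using quasi-likelihood tests, TMM scaling, group as the only term and filterByExpr at its defaults (minimum count 10, total 15), which left 12987 genes. Calls are Benjamini-Hochberg adjusted p-values under 0.05 over all of these. The SE was approximated from the log2 fold change and its F value, and CPM uses TMM-adjusted totals. The members and gene lists were chosen with earlier results of these data known. Genes named are the members, for each list up to 3 calls per direction or, with none, the 2 lowest p, the 5 genes most like Id3 and Id2 in pattern and the 3 most opposite, Il2ra, and the 2 most abundant markers of each other cell. Cd3d, Cd3g, Ets1, Lef1, Egr1, Egr3, Smad3, Tgfbr2 and Il2rb go beyond this rule. They were named for their calls with the block, after their values were seen. Others with values are marked in the text as named after their values were seen.

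Over the 2000 most variable genes, deviations from the group means correlated at 0.47, 0.31 and 0.24 for libraries numbered 1, 2 and 3, each above the limit of 0.1 for pairing. Each library correlated best with its own number, and differently numbered ones at -0.38 to 0.19. CD25-high library 2 with CD25-low library 3 (0.19) also lay above the limit. The limit alone therefore cannot establish the pairing of numbers 2 and 3. The pairing comes from the data, since no label states it. Replicates differed beyond sampling noise in every pair (chi-square over degrees of freedom 27.8 to 98.4). Alternatives were the replicate block, DESeq2 1.42.0, limma 3.58.1 (voom), RLE and upper-quartile factors, other filters, removal of abundant genes and each library left out.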

Additional observations from a re-analysis of the deposited data

How the results depend on the processing

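The direction of each tested member was the same in all 18 alternatives run for it. Id3 kept its call with the replicate block, with DESeq2, with other scaling factors or filters, and without CD25-high or CD25-low library 1; limma voom gave -4.71 (adjusted p 0.129), and leaving out a library gave -5.21 to -4.06. Over its alternatives the adjusted p ran from 2.2e-07 to 0.148. Id2 passed with the replicate block (0.89) and with the block without pair 3 (1.06). Tcf12 passed with the block without pair 1 (-0.82) and without both libraries numbered 1 (-0.83, an alternative chosen after seeing the data). Tcf3 and Tcf4 passed in none of these fits (lowest adjusted p 0.172 and 0.167).

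The number of genes called was 85, and 601 with the replicate block, 461, 486 and 536 with the block without pair 1, 2 and 3, 376 with DESeq2, 380 without both libraries numbered 1, and 22 to 130 with a library left out. Of the members, 2 were called with the block, 2 with the block without pair 1 or 3, 2 without both libraries numbered 1, 0 with limma voom, and 0 to 1 with a library left out. Of calls, 23.5% were higher in CD25-high cells, and 37.4% with the block. The summed E-protein level turned to -0.19 without length scaling, and ranged from -0.04 to 0.19 with a library left out. The ratio of summed Id to E-protein level ranged from -0.19 to 1.20 with a library left out. The difference in the log2 ratio of Id3 to Id2, -4.79 with 0.1 added, was -2.75 with 1 added and -5.12 without length scaling. No scaling moved the median of all genes by over 0.02. Low counts limit Id3 in CD25-high libraries (1 to 8 reads) and Ascl2, whose CD25-low libraries also differed among themselves (9, 0 and 10 reads).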
